A study of Mus musculus with 20 samples.

Results

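Embryonic fibroblasts homozygous for a mutant allele of Mysm1 were set against fibroblasts that carried 1 mutant and 1 intact copy, by gene expression on Illumina bead arrays. The arrays were taken by their titles: 3 from homozygous (hom) and 4 from heterozygous (het) mouse embryonic fibroblasts (MEF), 7 of the 20 arrays in the series. The 4 wild-type (wt) MEF arrays were normalized with them, shared the estimate of the spread, and are given beside them. Hom cells carried Mysm1tm1a(KOMP)WTSI on both chromosomes, het cells on 1 and wt cells on neither, all on a C57BL/6 background, with no treatment labelled. The tm1a design is a knockout-first gene trap present in every cell, which can leave some normal transcript. The series' design text gives 3 to 4 animals per MEF group. The age of the embryos and the passage of the cells were not given in the sources used here.

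MYSM1 is a deubiquitinase that removes ubiquitin from histone H2A, a mark laid down by Polycomb repressive complex 1 and linked to silent genes. In mice it is known best for blood formation, where its loss activates p53 and depletes stem and progenitor cells. The comparison separates loss of the second copy from loss of the first. MEF are mesenchymal cells grown out of whole embryos, so that a culture can hold other embryonic cell types.

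The arrays did not fall apart by genotype. Of the variance among the 11 MEF arrays 67.9% lay on 1 principal component, the first, which parted hom 3, het 3, het 4, wt 2 and wt 3 from the other 6, which also included every genotype. Fits that take this component as a covariate are therefore given beside the fits of genotype alone. The component was computed from the same probe values that are then tested. Median raw signal was 95.7 on the array of hom 3 and 53.2 to 59.95 on the other MEF arrays, and 28.5 to 31.8% of the probes were above background (detection p under 0.01). Slide 4 held hom 1, hom 2 and het 4, slide 5 hom 3, and slide 1 het 1 to het 3 with wt 1 to wt 3. Only slide 4 held both hom and het arrays, so genotype and slide were largely confounded. With slide as a fixed block the comparison rests on het 4 as its only het array. Hom 1 and hom 2 were the most alike of 55 pairs of MEF arrays (r = 0.995 across probes). Between them 20.2% of probes differed by more than 2 bead standard errors, the lowest share of any pair. Bead standard errors cover only the spread within an array, so this share does not show whether the cultures were separate. They were counted as 2 samples by their titles. Fibroblast matrix genes were above background in 28 of 29 cases with a probe. Of pluripotency genes 8 of 9, and of erythroid genes 6 of 6, were not above background on any MEF array. In such bulk samples fewer cells of a type and less RNA per cell cannot be told apart. The number of arrays limits the precision.

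Mysm1 was lowest in hom MEF. Of its 4 probes, 1 was above background (ILMN_3119954, for the gene at chr4:94942037-94979155 in GRCm38.p6). Its log2 intensity was 5.44, 5.41 and 4.99 in hom MEF, against 6.40, 6.43, 6.75 and 6.49 in het MEF and 7.43, 7.54, 7.0 and 7.44 in wt MEF. Every hom array lay below every het array, and every het array below every wt array. The hom mean was 5.28 ± 0.25 (SD, n = 3) and the het mean 6.52 ± 0.16 (n = 4), a difference of −1.24 ± 0.19 (SE), or 42.5% of the het level. In limma the adjusted p over all probes was 0.302. An exact two-sided permutation test of the 3 arrays against the 4 gave p = 0.0571, the lowest it can reach. With the first component as a covariate the difference was −1.25 ± 0.16 and passed (limma adjusted p = 0.0309). The probe was above background on 2 of 3 hom arrays, hom 3 being the exception, and the true remainder of transcript may be less than these values show. Whether the probe lies in the part of the transcript that the trap interrupts is not given in the sources used here.

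**Figure D1:**
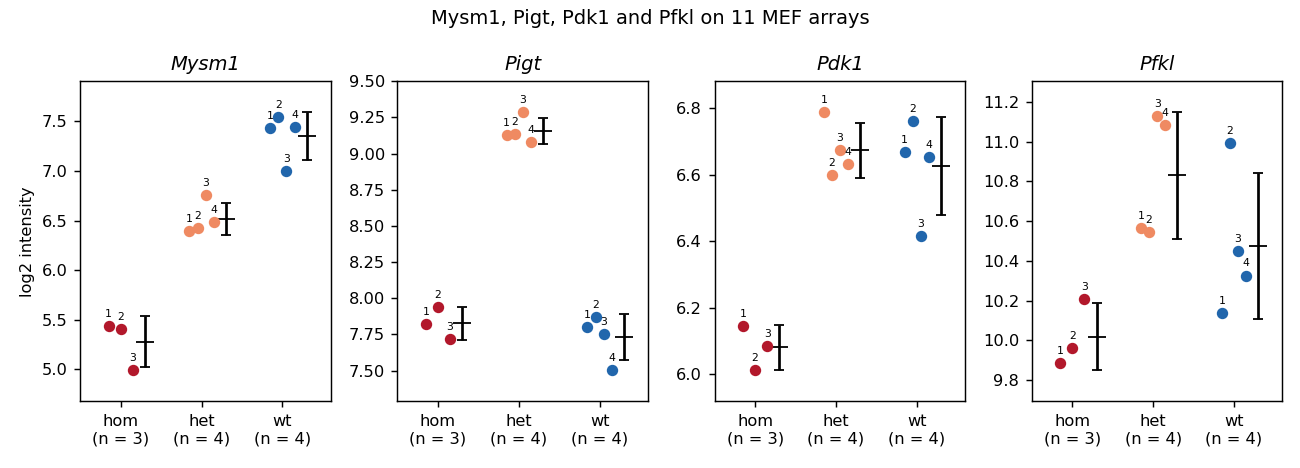
Log2 intensity of Mysm1, Pigt, Pdk1 and Pfkl on each MEF array (points, numbered by replicate) by genotype, with the mean and SD of each group in black; the vertical axes differ and do not start at 0. Hom arrays lie below all het arrays in each panel, while for Pigt the wt arrays lie beside the hom arrays and for Pdk1 beside the het arrays.

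In the fit of genotype alone, Pigt was the only gene to pass over all probes in limma between hom and het MEF. Genes that did not pass may still differ. Pigt encodes a subunit of the transamidase that attaches glycosylphosphatidylinositol (GPI) anchors to proteins in the endoplasmic reticulum. Its brighter probe (ILMN_2465338, gene at chr2:164497090-164508301 in GRCm38.p6) had log2 intensities of 7.82, 7.94 and 7.72 in hom MEF, against 9.13, 9.14, 9.29 and 9.08 in het MEF and 7.80, 7.87, 7.75 and 7.50 in wt MEF. The hom and wt arrays overlapped, and the het arrays stood above both. Pigt fell by 1.33 ± 0.13 (SE) in hom against het MEF, to 39.7% of the het level (limma adjusted p = 0.0140, n = 3 and 4). It stood at 106.8% of the wt mean, and het MEF at 268.9% of it. A dimmer probe of Pigt gave 6.42, 6.28 and 6.57 in hom MEF and 7.03, 6.90, 8.16 and 7.94 in het MEF, again without overlap (−1.09 ± 0.30, limma adjusted p = 1.00), and the third was above background on no MEF array. The call on the brighter probe was lost when any 1 of the 7 hom and het arrays was left out (limma adjusted p from 0.0593 to 0.181), with the difference at −1.28 to −1.39. It was lost as well with the replicate number as a block, at −1.38 (limma adjusted p = 0.161).

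This probe was 1 of 15125 tested (0.00661%) that was lower in hom MEF, and 0 were higher (0%). At an unadjusted limma p under 0.05 there were 102 lower (0.674%) and 140 higher (0.926%), 1.6% of the probes in all. With the replicate block limma called 0 probes, and 280 had an unadjusted p under 0.05. Read by the brightest probe of each of 8999 genes, 47.2% of differences were negative, 52.8% were positive and the median difference was 0.01. Hom arrays lay wholly below het arrays in 1.37% of the genes and wholly above them in 1.71%.

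The other 21 tested genes of GPI anchor synthesis had a median difference of 0.10, and 8 were negative. That median was 0.04 to 0.13 as single arrays were left out, the lowest without het 1. All 5 subunits of the transamidase were negative, from −0.09 for Gpaa1 to −1.33 for Pigt, with Pigs at −0.44 ± 0.23 and Pigu and Pigk between −0.19 and −0.12. Gpaa1 turned positive with the first component as a covariate and without het 3 or het 4, and Pigk without het 3. At an unadjusted limma p under 0.05 Pigt was the 1 member lower in hom MEF, where 0.578% of all genes were lower. The 13 enzymes that assemble the anchor had a median of 0.13 and 3 negative members.

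Pdk1 and Pfkl, both of glucose metabolism, were lower on every hom array than on any het array. Glycolysis splits glucose to pyruvate in the cytosol, and the phosphofructokinase step, to which PFKL contributes the liver-type subunit, commits sugar to it. PDK1 phosphorylates and inhibits pyruvate dehydrogenase, which holds pyruvate back from the mitochondria, and its gene is a well-known target of the hypoxia-inducible factor HIF. Pdk1 (ILMN_1229318) had log2 intensities of 6.14, 6.01 and 6.09 in hom MEF, against 6.79, 6.60, 6.67 and 6.63 in het MEF and 6.67, 6.76, 6.42 and 6.65 in wt MEF. The difference was −0.59 ± 0.14 (SE), or 66.3% of the het level. Het and wt arrays overlapped. For Pfkl (ILMN_1236539) the values were 9.88, 9.96 and 10.21 in hom MEF, 10.56, 10.54, 11.13 and 11.08 in het MEF and 10.13, 10.99, 10.45 and 10.33 in wt MEF. Here the wt arrays spanned the gap between the other groups, and the difference was −0.81 ± 0.22, or 56.9% of the het level. Neither passed over all probes (unadjusted limma p = 0.00125 for Pdk1 and 0.00377 for Pfkl, adjusted p = 1.00 for both), and an exact two-sided permutation test gave p = 0.0571 for each, again the lowest it can reach. Groups that do not overlap always give that value, and both markers were chosen with earlier results of these data known. The permutation test therefore adds nothing to the lack of overlap. A second, dim probe of Pfkl, above background on 6 of 11 arrays, differed by −0.02 ± 0.17, and the second probe of Pdk1 was above background on no array.

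The promoters of these 2 genes are shown because their genes lead the glycolysis list and HIF binds the core letters ACGTG or GCGTG. Each is the 250 bases before the first start listed in the RefSeq promoter table for GRCm38.p6, which for Pdk1 lies a few bases inside the gene's annotated start, read along the gene's strand, 5′ to 3′, with the core in capitals. The Pdk1 promoter lies at chr2:71872974-71873223 on the plus strand and the Pfkl promoter at chr10:78009808-78010057 on the minus strand.
Pdk1: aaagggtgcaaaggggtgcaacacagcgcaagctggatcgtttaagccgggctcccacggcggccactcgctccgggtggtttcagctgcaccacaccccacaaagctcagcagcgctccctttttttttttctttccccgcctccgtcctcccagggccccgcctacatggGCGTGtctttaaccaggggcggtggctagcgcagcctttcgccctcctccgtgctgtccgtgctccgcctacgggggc
Pfkl: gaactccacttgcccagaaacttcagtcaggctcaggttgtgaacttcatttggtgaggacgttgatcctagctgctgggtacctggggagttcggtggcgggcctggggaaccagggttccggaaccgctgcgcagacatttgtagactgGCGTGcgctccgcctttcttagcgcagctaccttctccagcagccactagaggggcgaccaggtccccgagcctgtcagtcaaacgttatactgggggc
Both hold GCGTG once on the strand shown. Another promoter listed for Pdk1, at chr2:71874654-71874903, holds neither core on either strand. Searched on both strands, ACGTG or GCGTG stood in the first listed promoter of 76.3% of the 38 tested glycolysis and hypoxia genes with a promoter in the table, against 38.6% of 27025 genes with one. The list was chosen to hold hypoxia-induced genes, and the 27025 genes were not limited to those tested, so the shares are no test. A match is a run of letters and does not show that a factor binds there.

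Across 42 tested genes of glycolysis and the hypoxia response, 31 were negative in hom against het MEF, with a median of −0.18 against 0.01 for all genes. At an unadjusted limma p under 0.05, 3 were lower, Pfkl, Aldoa and Pdk1, and 0 higher, where 0.578% and 0.689% of all genes were. Hom and het arrays did not overlap for 6 members, all lower, where 1.37% of all genes were wholly lower and 1.71% wholly higher. The glycolytic enzymes were negative in 9 of 12 cases. The list did not hold Pgam2, the muscle phosphoglycerate mutase, which is a glycolytic enzyme too. Pgam2 was higher on every hom array than on any het array (0.58 ± 0.16), though it was above background on only 1 of 4 het arrays. The counts given here therefore hold for the listed genes only. The phosphoglycerate kinase gene Pgk1 stood at −0.57 ± 0.29, the pyruvate kinase gene Pkm at −0.39 ± 0.32, the aldolase gene Aldoa at −0.33 ± 0.13 and the triosephosphate isomerase gene Tpi1 at −0.26 ± 0.13. Gapdh differed by −0.05 ± 0.11, and the other phosphofructokinase genes, Pfkp and Pfkm, lay at −0.16 ± 0.36 and 0.24 ± 0.32. Aldoa showed the pattern of Pfkl at a smaller size, with 11.03, 11.01 and 10.91 in hom MEF against 11.12, 11.19, 11.47 and 11.46 in het MEF.

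Among regulators of pyruvate and fructose bisphosphate, Pdk1 stood alone: 7 of the 9 were positive, and the next lowest was Dlat, of pyruvate dehydrogenase, at −0.04 ± 0.20. Another pyruvate dehydrogenase kinase gene, Pdk3, was at 0.11 ± 0.15, and the enzyme's own subunit genes Pdha1 and Pdhb at 0.02 ± 0.15 and 0.03 ± 0.13. The signs of Dlat, Pdha1 and Pdhb turned as single arrays were left out. The glucose transporter genes Slc2a1 and Slc2a3 were at −0.48 ± 0.44 and −0.22 ± 0.35, and Ldha, which makes lactate, at −0.19 ± 0.26.

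All 6 HIF factors and oxygen sensors tested were negative, from −0.09 for Egln2 to −0.48 for Egln3, both prolyl hydroxylases that mark HIF for decay, with Hif1a itself at −0.24 ± 0.31. Arnt and Egln1 were positive without het 3, and Egln2 without hom 3. Another hydroxylase gene, Egln1, lay below background on all hom arrays and was at least 1.14-fold lower (means 4.98 in hom and 5.27 in het MEF). Of other hypoxia-induced genes 11 of 12 were negative (10 with the first component as a covariate), among them the stress regulator Ddit4 at −0.48 ± 0.38, the collagen prolyl hydroxylase gene P4ha1 at −0.36 ± 0.24 and the angiogenic factor Vegfa at −0.32 ± 0.18. Bnip3l, a mitophagy receptor, was the positive member at 0.39 ± 0.52. None of these differences passed over all probes (limma adjusted p = 1.00 for each).

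**Figure D2:**
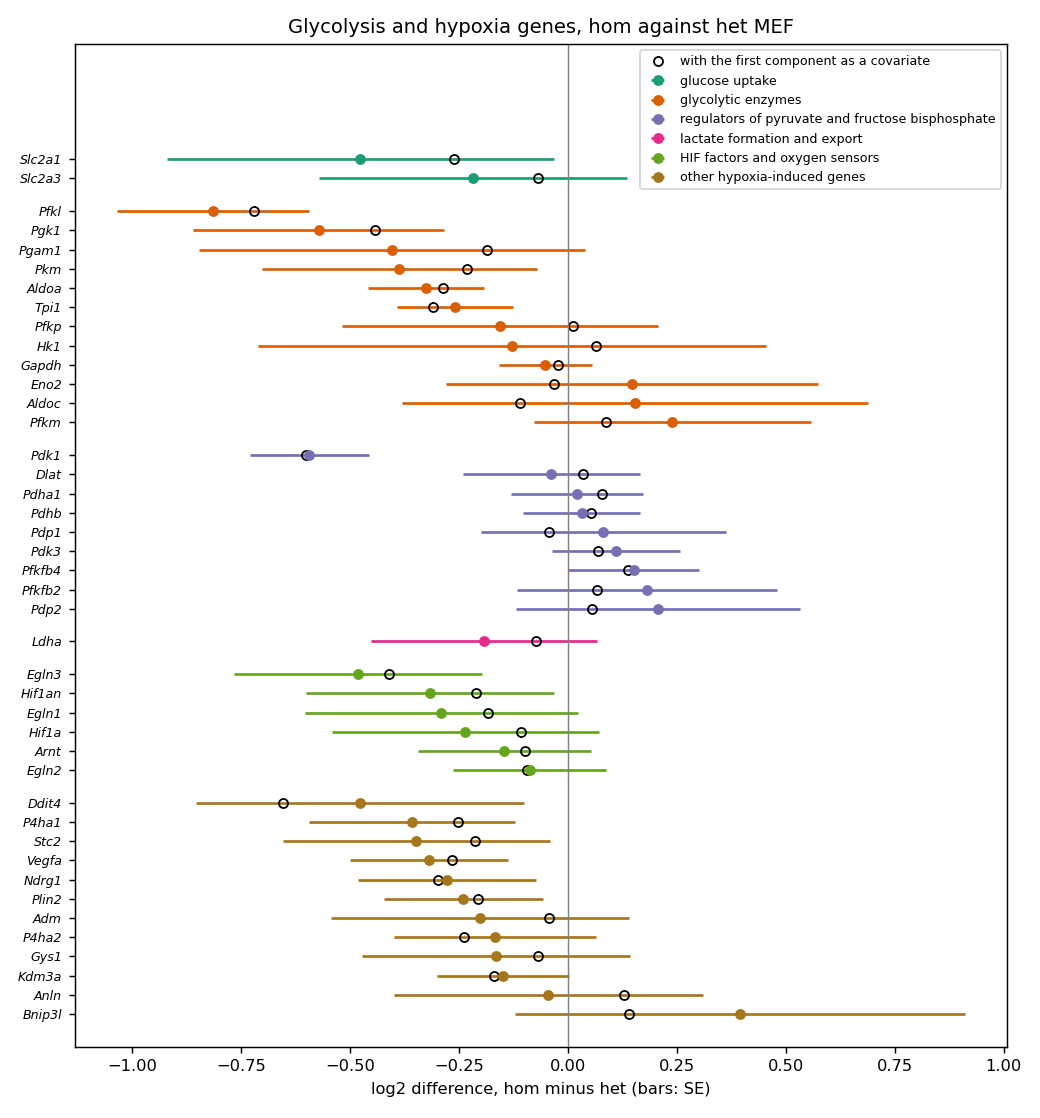
Log2 difference of hom minus het MEF for 42 glycolysis and hypoxia genes by role (filled points, with the SE as bars), and the same in the fit that takes the first component as a covariate (open circles); the line marks 0. Pfkl, Pgk1 and Pdk1 lie furthest to the left, while the other regulators of pyruvate and fructose bisphosphate lie near 0.

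The array medians of the glycolysis list, set against the het mean, were −0.24, −0.19 and −0.15 in hom MEF, −0.10, −0.15, 0.15 and 0.12 in het MEF, and −0.21, 0.16, −0.02 and −0.12 in wt MEF. Hom arrays were the lower on the whole, yet het 1 and het 2 lay at or near them and het 3 and het 4 apart. Leaving out single arrays took the list's median of differences to between −0.25 and −0.11, the last without het 3. With the first component as a covariate 30 of 42 were negative, with a median of −0.10. In that fit 8 members were lower at an unadjusted limma p under 0.05, where 3.79% of all genes were: Pfkl, Pgk1, Pkm, Aldoa, Tpi1, Pdk1, P4ha1 and Ddit4. Pdk1 kept its size (−0.60 ± 0.11, limma adjusted p = 0.153) and Pfkl stood at −0.72 ± 0.11 (limma adjusted p = 0.0759).

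Over the whole array, 43 genes higher and 29 lower in hom MEF had an unadjusted limma p under 0.05, no overlap between hom and het arrays, and a signal above background on every array of at least 1 of the groups. The 12 furthest on each side are described. Apart from Pigt none passed over all probes, Mysm1 at an adjusted p of 0.302 and the others at 1.00 in limma.

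Among the 12 highest Dmpk, the myotonic dystrophy protein kinase, had 8.90, 8.82 and 8.81 in hom MEF, against 7.92, 8.45, 8.31 and 8.06 in het MEF (0.66 ± 0.17) and 7.90 to 8.48 in wt MEF. Mylk, the myosin light chain kinase that starts smooth muscle contraction, had 11.66, 11.69 and 11.71 in hom MEF, against 11.16, 11.47, 11.04 and 11.03 in het MEF (0.51 ± 0.13) and 11.05 to 11.49 in wt MEF. For both, the 3 hom arrays lay within 0.1 of each other and above every other MEF array. Popdc2, a membrane protein of striated muscle, stood at 0.86 ± 0.33 and the muscle phosphoglycerate mutase Pgam2, a glycolytic enzyme, at 0.58 ± 0.16. Popdc2 was as high in wt MEF, at 5.95 to 7.23 against 6.09 to 6.44 in hom MEF. The array medians of 13 skeletal muscle genes, set against the het mean, were −0.82, −0.72 and 2.15 in hom MEF and −1.09, −1.03, 1.03 and 1.06 in het MEF, so hom 3 stood far above hom 1 and hom 2. Their part in the values of Popdc2, Pgam2 and Dmpk was not tested.

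Meox1, a homeobox factor of somites and their mesenchyme, had 8.13, 8.35 and 7.90 in hom MEF, against 7.66, 7.26, 7.33 and 7.29 in het MEF (0.74 ± 0.23) and 6.91 to 7.79 in wt MEF. Cyp2f2, a cytochrome P450 best known from mouse airway, stood at 0.99 ± 0.33 with 5.59, 5.29 and 6.74 in hom MEF, of which hom 3 was well above the others. Nktr, a cyclophilin-like protein, was not above background on any het array and was at least 1.7-fold higher in hom MEF (means 5.80 and 4.85, limma adjusted p = 1.00). Pank3, of coenzyme A synthesis, and Acaa1b, a peroxisomal thiolase, stood at 0.73 ± 0.20 and 0.54 ± 0.13. Cenpp, of the centromere, Alg11, of N-glycan assembly, and 1700007K13Rik made up the 12, at 0.51 to 0.61. Cyp2f2 and Pgam2 were above background on 1 of 4 het arrays, and Popdc2, Acaa1b and Alg11 on 2 of 4. Their differences thus rest on dim het values.

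Cdkn2a, among the 12 lowest, encodes the Ink4a and Arf inhibitors that accumulate as MEF age in culture. It had 5.22, 4.91 and 4.56 in hom MEF, against 6.14, 6.22, 5.57 and 5.34 in het MEF and 5.05, 4.73, 4.79 and 5.34 in wt MEF. Het arrays were the high ones, and the probe was above background on 1 of 3 hom, 4 of 4 het and 1 of 4 wt arrays (−0.92 ± 0.26). Ptx3, a secreted pentraxin of innate immunity, had 7.88, 7.97 and 8.27 in hom MEF, against 8.82, 8.40, 8.81 and 9.24 in het MEF (−0.78 ± 0.20) and 8.32 to 8.72 in wt MEF. Its second probe differed by −0.76 ± 0.17. Hom arrays were below all others on the brighter probe.

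The interferon-inducible gene Ifi207 had 5.77, 5.78 and 5.76 in hom MEF, against 6.54, 6.93, 6.13 and 7.33 in het MEF (−0.96 ± 0.31) and 6.61 to 7.63 in wt MEF. Slc15a3, a lysosomal peptide transporter of immune cells, stood at −0.97 ± 0.30, above background on 1 of 3 hom arrays. Clec4n, a C-type lectin receptor of myeloid cells, lay below background on all hom arrays and was at least 1.36-fold lower (means 4.79 in hom and 5.52 in het MEF, limma adjusted p = 1.00). Of 26 macrophage genes with a probe 20 were above background on some MEF array, while Ptprc, Itgam, Cd53, Ctss, Clec7a and Msr1 were on none. The summed signal of all 26 was 9070 to 9440 in hom MEF, 10700 to 16500 in het MEF and 9290 to 17000 in wt MEF, and its part in these values was not tested. The remaining lower genes were Rabl6, a Rab-like GTPase (−0.81 ± 0.21), Irx1, an Iroquois homeobox factor (−0.71 ± 0.22), Tcof1, the ribosome biogenesis factor treacle (−0.63 ± 0.22), and Raly, an RNA-binding protein (−0.60 ± 0.21).

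The wt arrays were set beside these differences. Most het and wt arrays shared a slide that held no hom array, so wt lying near het cannot be told apart from a slide effect. The wt mean was nearer to the het mean for 14 of the 24 genes and nearer to the hom mean for 10. For 11 genes the hom arrays stood apart from both het and wt arrays: Cyp2f2, Meox1, Dmpk, Acaa1b, Mylk and Alg11 above them, and Mysm1, Ifi207, Ptx3, Clec4n and Tcof1 below. For 8 the het arrays did not overlap the wt arrays: Popdc2, Pank3, Pigt, Mysm1, Cdkn2a, Rabl6, Irx1 and Raly. Apart from Mysm1, whose mean was lower with each copy lost, the wt mean of these lay nearer to hom than to het. The genes were picked for hom and het arrays that do not overlap, so their differences describe the choice and are no test. These counts against wt arrays were not made over all genes tested, so they describe the 24 genes only.

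**Figure D3:**
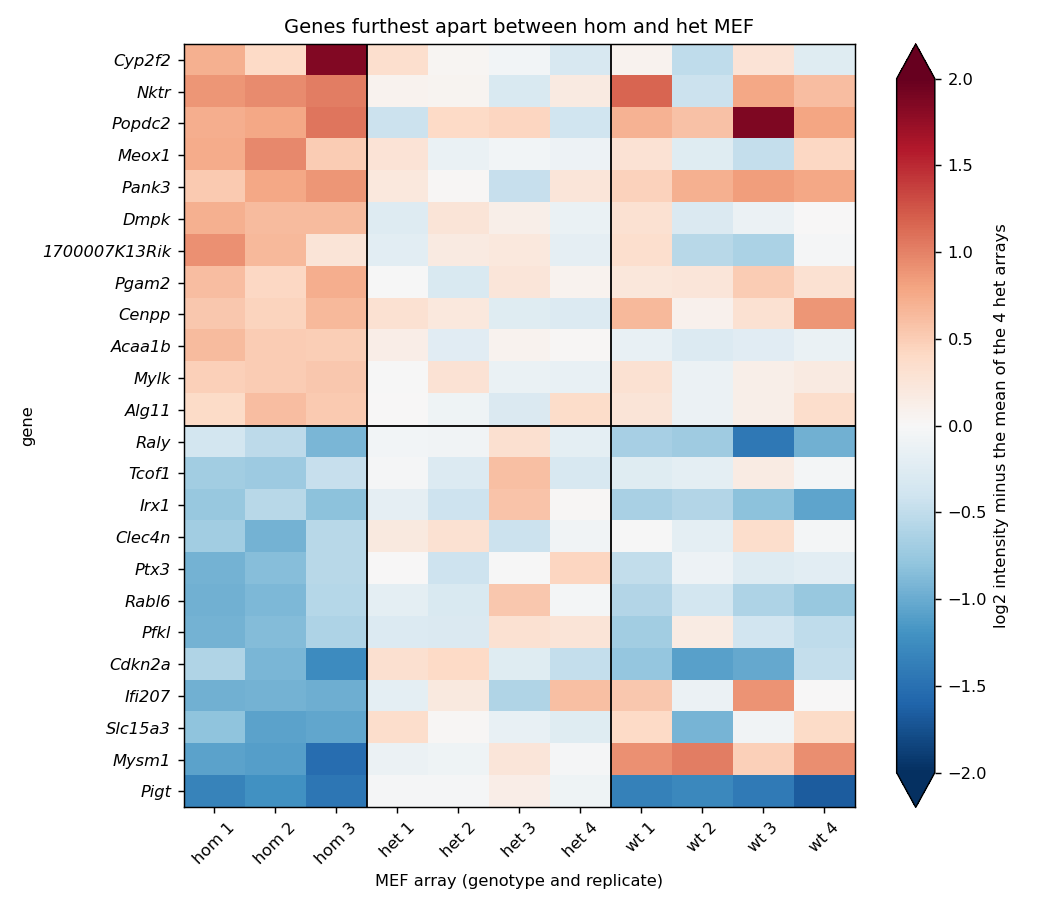
Log2 intensity minus the mean of the 4 het arrays (colour, from −2 to 2) for the 12 highest and 12 lowest genes of hom against het MEF (rows, in order of the difference), on the 3 hom, 4 het and 4 wt arrays (columns). Hom columns are uniformly red above and blue below the line, whereas wt columns lie nearer to the hom columns for Pigt, Popdc2, Pank3 and Raly.

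Inflammatory genes were the list with the lowest median. Of 31 genes of inflammatory secretion tested, 28 were negative, with a median of −0.72, and 3 were lower at an unadjusted limma p under 0.05 and 0 higher, where 0.578% and 0.689% of all genes were. The chemokine genes were negative in 10 of 11 cases (median −0.89), cytokines and acute phase proteins in 6 of 8 (−0.71), matrix proteases and their inhibitors in 5 of 5 (−0.45) and regulators of NF-kB, the transcription factor of inflammation, in 7 of 7 (−0.72). Ccl7, a monocyte chemokine, had 8.94, 8.88 and 9.46 in hom MEF, against 11.78, 9.46, 9.50 and 10.77 in het MEF (−1.28 ± 0.56) and 9.76 to 11.59 in wt MEF. Hom arrays were low and close together, het arrays spread widely, and hom 3 lay at the level of het 2 and het 3. Vcam1, an adhesion molecule induced by NF-kB, stood at −0.54 ± 0.20, and the gelatinase gene Mmp9 at −0.72 ± 0.33. None of these passed over all probes.

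The array medians of the chemokine genes, set against the het mean, were −0.92, −0.84 and −0.92 in hom MEF, 1.13, −0.38, −0.88 and −0.07 in het MEF and −0.38, −0.25, 0.28 and 1.22 in wt MEF. Those of NF-kB regulators were −0.62, −0.73 and −0.57 in hom MEF, 0.90, −0.42, −0.13 and −0.03 in het MEF and −0.46, −0.09, −0.22 and 0.59 in wt MEF. Hom arrays held the low end of both lists, on both sides of the first component, with het 3 within their range for chemokines. The median of all 31 was −0.54 without het 1, the array with the highest level, and −0.82 at the other end of the arrays left out. With the first component as a covariate 30 of 31 were negative (median −0.62), 12 of them at an unadjusted limma p under 0.05, where 3.79% of all genes were lower.

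Of the 20 macrophage genes tested 18 were negative as well, with a median of −0.37. Their array medians and the summed signal of the macrophage list ordered the arrays differently. The macrophage medians were −0.23, −0.34 and −0.59 in hom MEF and 0.43, 0.96, −0.42 and −0.85 in het MEF, so het 4 was below every hom array and het 1 and het 2 above. The summed signal of the 26 genes with a probe was lower on every hom array than on any het array. It was 9070 to 9440 in hom MEF and 10700 to 16500 in het MEF, with het 4 at 10700. On het 2 and het 4 the chemokine medians were −0.38 and −0.07. Within slide 4, where het 4 is the 1 het array, the macrophage median was 0.44 and that of the inflammatory list −0.70. With the first component as a covariate the macrophage median was −0.62, and 14 of 20 were lower at an unadjusted limma p under 0.05, again against 3.79% of all genes. In the fit of genotype alone it was −0.10 without het 2 and −0.63 without het 4. Of 8 epithelial genes 7 were negative, with a median of −0.50. Among lists with at least 5 tested genes this was the next lowest after the inflammatory one. Their array medians were −0.96, −1.20 and 0.69 in hom MEF and −1.03, −0.95, 1.15 and 0.68 in het MEF, so they parted by the first component, and the list median was −0.11 with it as a covariate, −1.83 within slide 4, and −1.08 to −0.12 as single arrays were left out. The 3 tested neural and neural crest genes were all negative (median −0.66). The part of these cell types in the differences of the text was not tested.

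The interferon response list had 23 negative members of 25 and a median of −0.35, or −0.32 with members below background in hom MEF at their bound. The median was −0.11 without het 4, −0.21 without hom 3, −0.56 without hom 1 and −0.60 without het 3. Rsad2, the antiviral viperin, lay below background on all hom arrays and was at least 1.32-fold lower (means 4.47 in hom and 5.48 in het MEF, limma adjusted p = 1.00). The array medians of the list were −0.11, −0.16 and −1.07 in hom MEF and 0.04, −0.06, −0.95 and 0.83 in het MEF, so hom 3 and het 3 were alike in being low and the groups overlapped. Antigen presentation genes of MHC class I were negative in 10 of 11 cases (median −0.20, or −0.16 with a member at its bound), and their median was −0.41 without hom 1 and −0.40 without het 3. The heavy chain gene H2-D1 had 7.49, 7.46 and 7.01 in hom MEF, against 8.28, 7.93, 7.21 and 8.86 in het MEF (−0.75 ± 0.37).

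Of 22 immediate early genes, which answer growth factors and stress within minutes, 21 were negative (median −0.34). The AP-1 gene Junb had 7.75, 7.78 and 8.77 in hom MEF, against 8.91, 7.89, 10.15 and 9.42 in het MEF (−0.99 ± 0.50). Here the arrays followed the first component as well as genotype, and with it as a covariate the list median was −0.12. Each array left out moved the median by over 1.5 times, from −0.62 without hom 3 to −0.09 without het 3.

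**Figure D4:**
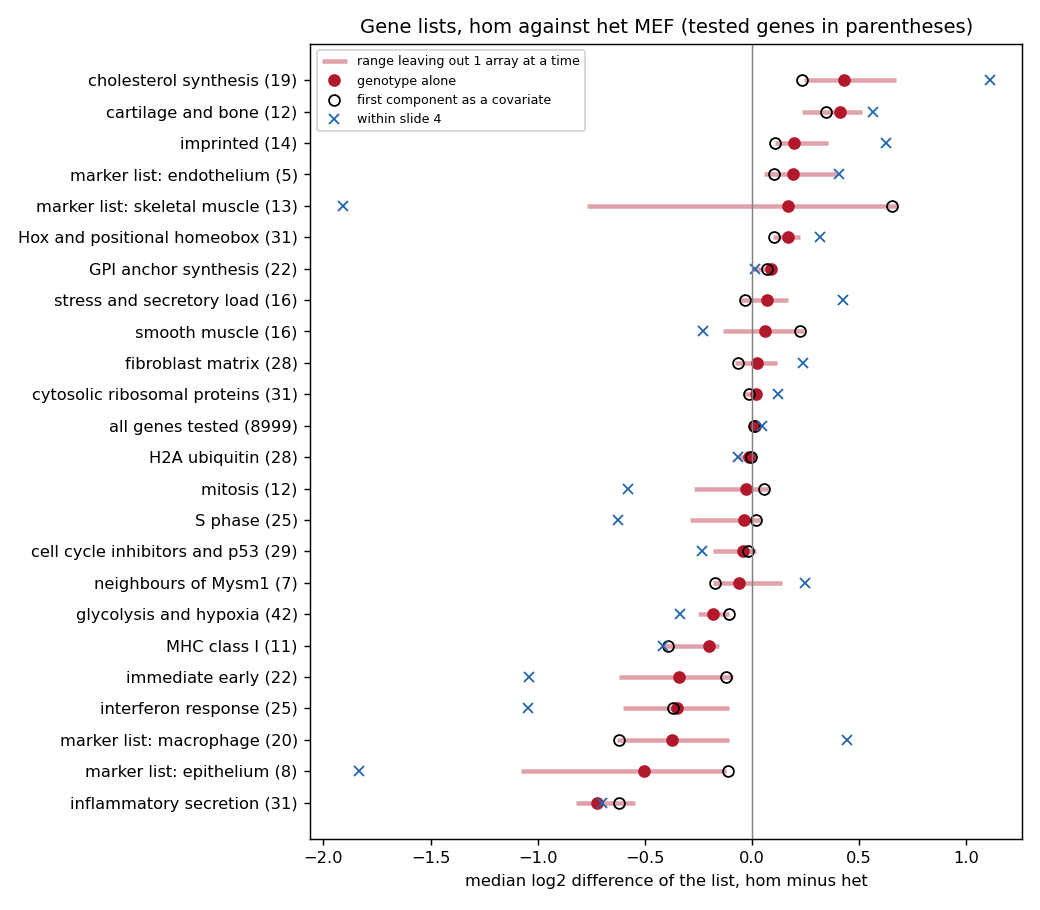
Median log2 difference of hom minus het MEF for each list with at least 5 tested genes and for all genes tested (filled points), its range when 1 array at a time is left out (bars), and the same median with the first component as a covariate (open circles) and within slide 4 (crosses). The inflammatory list is lowest at −0.72 with genotype alone, while within slide 4 it stands at −0.70 and skeletal muscle and epithelial genes lie lower, at −1.91 and −1.83.

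Of 23 lists with at least 5 tested genes, 12 had a negative and 11 a positive median. Cholesterol synthesis genes were the highest, with 16 of 19 positive and a median of 0.43, and the 14 enzymes from acetyl-CoA onward were positive in 13. Cyp51, the lanosterol demethylase, had 9.04, 9.15 and 8.36 in hom MEF, against 8.84, 8.87, 7.88 and 7.70 in het MEF (0.53 ± 0.39), and Hsd17b7 stood at 0.46 ± 0.27. The list median was 0.67 without hom 3, 0.27 without het 3 and 0.24 without het 4. On each side of the first component the hom arrays were the higher, by less than the step between the sides. With the component as a covariate the list median was 0.24, and 6 members were higher at an unadjusted limma p under 0.05, where 4.46% of all genes were.

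Of 12 cartilage and bone genes 11 were positive (median 0.41), with the chondrocyte regulator Sox9 at 0.49 ± 0.43 and the matrix gene Matn4 at 0.96 ± 0.56. Without hom 3 their median was 0.24. Imprinted genes were positive in 12 of 14 cases (median 0.20, and 0.11 without hom 1 or hom 2, 0.36 without hom 3 and 0.34 without het 2). Dlk1, a paternally expressed inhibitor of adipocyte formation, had 13.47, 13.44 and 13.34 in hom MEF, against 12.95, 13.23, 13.14 and 13.20 in het MEF (0.29 ± 0.14), without overlap. Hox and other positional homeobox genes were positive in 22 of 31 cases (median 0.17, and 0.10 without hom 1).

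Smooth muscle genes were positive in 12 of 16 cases (median 0.06), and 2 were higher at an unadjusted limma p under 0.05, where 0.689% of all genes were: Mylk and the gamma actin gene Actg2 (0.36 ± 0.14). Tpm2 and Myl9, of the contractile apparatus, stood at 0.29 ± 0.14 and 0.25 ± 0.13. The list's median ran from −0.14 without hom 3 to 0.24 without het 3, also negative without het 1 or het 2, and was 0.23 with the first component as a covariate. Hom 3, which was high in skeletal muscle genes, was also the hom array with the highest smooth muscle median, at 0.40 against −0.13 and −0.15 in hom 1 and hom 2.

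**Figure D5:**
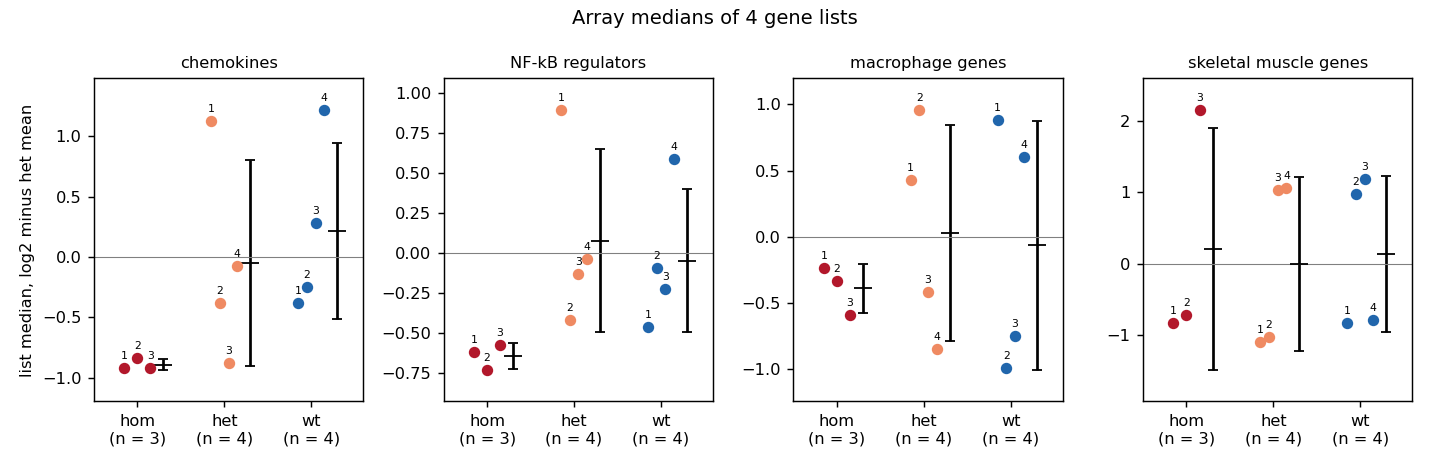
Array medians of chemokine, NF-kB regulator, macrophage and skeletal muscle genes (log2 intensity minus the mean of the het arrays; points, numbered by replicate) by genotype, with the mean and SD of each group in black. Hom arrays sit at the low end for chemokines and NF-kB regulators, while hom 3 stands at 2.15 for skeletal muscle genes, apart from hom 1 and hom 2.

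Several other lists, among them those of histone H2A ubiquitin and of p53, lay near the median of all genes. Enzymes of histone H2A ubiquitin, 28 tested, had a median of −0.01, in which Mysm1 was the lowest and the next named, the ligase Rnf168, stood at −0.34 ± 0.26. The 21 p53 targets had a median of −0.04 with 11 negative, among them Gadd45a at −0.41 ± 0.22 and the death receptor gene Tnfrsf10b at −0.35 ± 0.16. The medians of S phase genes (25 tested, −0.04), mitosis genes (12, −0.02), secretory stress genes (16, 0.07), cytosolic ribosomal proteins (31, 0.02) and fibroblast matrix genes (28, 0.02) were also near 0, with members of either sign. Within slide 4 the S phase median was −0.62 and the mitosis median −0.58. Of fibroblast matrix genes 12 of 28 were negative, and 21 with the first component as a covariate (median −0.06). The 7 tested neighbours of Mysm1 on chromosome 4 had a median of −0.06. Such medians took either sign as single arrays were left out, from −0.29 to 0.04 for S phase and from −0.27 to 0.09 for mitosis genes. A median near 0 does not show that no member differs.

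With the first component as a covariate 5 probes passed in limma, 4 lower (0.0264%) and 1 higher (0.00661%), and 7.91% of probes had an unadjusted p under 0.05. The 5 were those of Pigt, Mysm1, Lgals3, Cdkn2a and Alx4. The component comes from the tested values and was entered as if known, so the errors of that fit may be too small. That fit was not repeated with single arrays left out. Lgals3, the secreted lectin galectin 3, was low on all hom arrays: 9.97, 9.86 and 9.93, against 10.39, 10.58, 10.39 and 10.53 in het MEF and 10.67, 10.62, 10.56 and 10.54 in wt MEF. It lies on the macrophage list and is made by fibroblasts too. It fell by 0.56 ± 0.07 in that fit (limma adjusted p = 0.0309), and in the fit of genotype alone the difference was the same size with a wider error (−0.56 ± 0.10, adjusted p = 0.775). The homeobox gene Alx4, which patterns limb and face, rose by 0.84 ± 0.10 with the covariate (limma adjusted p = 0.0140). Its values were 7.77, 7.81 and 7.0 in hom MEF, against 7.0, 7.11, 5.93 and 5.81 in het MEF, and the low arrays of both genotypes lay on the same side of the component. Cdkn2a fell by 1.03 ± 0.14 in the same fit (limma adjusted p = 0.0344).

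Whether these differences belong to MEF was asked of the embryonic stem cells (ESC) in the series, with 3 arrays labelled for each genotype. Mysm1 went against the labels of a pair of these: it was 6.64, 5.56 and 4.89 on the arrays labelled ESC hom 1 to hom 3, and 4.49, 6.86 and 6.84 on those labelled ESC het 1 to het 3. The array labelled hom 1 thus lay near het 2 and het 3, and that labelled het 1 below every array labelled hom, so each result is given with and without both. With all ESC arrays, in limma the hom against het difference in MEF minus that in ESC passed for 0 of 17067 probes (0%), while 224 had an unadjusted p under 0.05 (1.31%). In this joint fit Pigt stood at −1.36 ± 0.18 in MEF and −0.30 ± 0.19 in ESC, a difference between the cell types of −1.06 ± 0.26 (adjusted p = 1.00). Pdk1 stood at −0.59 in MEF and −0.15 in ESC, and Pfkl at −0.84 in MEF and −0.37 in ESC, with differences between the cell types of −0.44 ± 0.26 and −0.47 ± 0.33 (limma adjusted p = 1.00 for both). Without the ESC arrays labelled hom 1 and het 1 the difference between the cell types was −0.69 for Pigt, −0.19 for Pdk1, −0.29 for Pfkl and 0.43 for Mysm1, which stood at −0.83 with all arrays (limma adjusted p = 1.00 for each). Both arrays were picked by their Mysm1 values, so the change in Mysm1 follows from leaving them out. In the fit without them 4 probes passed (0.0234%, and 2.3% at an unadjusted p under 0.05), those of Fam183b, Fmr1nb, Spata45 and Taf7l, whose MEF differences were between −0.03 and 0.00.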

How the data were processed

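RNA from 11 MEF and 9 ESC samples was hybridised to Illumina bead arrays of 45281 probes. The deposited table of unnormalized values holds, per the file headers, 1 linear intensity per probe and array, averaged over beads, and a detection p-value that sets it against control beads. The deposited series matrix holds normalized intensity values of the same arrays and served as an alternative. BeadStudio and limma are named, per the submitters' processing notes.

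In R 4.3.3 with limma 3.58.1, MEF arrays were background-corrected with neqc (offset 16), quantile normalized together and put on the log2 scale, which compresses dim values. Tested were probes above background, at a detection p under 0.01, on 3 or more MEF arrays (15125 probes, 8999 genes, 8 residual degrees of freedom) with lmFit and eBayes with a trend in 3 groups. Adjusted p is Benjamini-Hochberg over these probes, with a threshold of 0.05. Of all probes 34885 matched 1 gene symbol, and each gene was read by its brightest probe, with positions and promoters from RefSeq GRCm38.p6. The joint fit of 20 arrays tested 17067 probes with 14 residual degrees of freedom. Where all arrays of a group lay below background for a gene, its fold is a lower limit, taken against the dimmer group with each array set to the larger of the probe's own signal and the lowest signal above background.

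The members, markers and gene lists were chosen with earlier results of these data known, so lists are described by counts and medians. Named were Mysm1, Pdk1, Pfkl, any gene passing, the 12 highest and 12 lowest by the rule given in the text, and up to 4 members of a list by smallest p, glycolysis and hypoxia genes without limit. The other transamidase subunits and the 4 genes of the ESC comparison were named as well.

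Same-numbered hom and het arrays correlated at 0.592, 0.694 and 0.520 after removal of group means, so a fit with the replicate block is given where it changes a call. Arrays of different number correlated as highly where they shared a side of the first component (0.639 to 0.715), and the labels name no shared litter or day. The correlation therefore does not show that the numbers pair the arrays. The block also ties wt arrays in by number, though wt 2 lay across the first component from hom 2 and het 2. On simulated data with 200 changed probes, hom against het MEF recovered 2, 28, 84 and 92% of log2 changes of 0.5, 1, 2 and 3, with 6 false calls among 109. The simulated noise was independent between probes and arrays and held neither the shared first component nor the slides. These rates therefore need not hold for the real arrays. As alternatives the background correction, normalization, source table, probe filter, slide, replicate block, first component, array weights and single arrays were varied. Figures were drawn with matplotlib 3.10.9.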

Additional observations from a re-analysis of the deposited data

Results flagged for a closer look

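Of 147 sets of 4 het values examined, 7 held an array whose gap to the nearest other was larger than Dixon's limit, and chance alone sets apart about 1 in 20. Het 3 stood below the other het arrays for the MHC class I genes H2-T23 (log2 intensity 5.418) and Tapbp (5.299), and for the median of that list (−0.860 against the het mean). Het 3 stood above them for Ercc5 (8.768), a DNA repair gene. Het 4 stood above the others for the matrix gene Sparc (12.900) and the neural crest factor Sox10 (7.109). Xist, the RNA of the inactive X chromosome, was high in het 1 (6.209).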

How the results depend on the processing

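Against 1 probe in the fit of genotype alone, 0 passed in limma under median scaling, without the filter on dim probes, with hom and het arrays only, with slide as a fixed block, with the replicate block, with that block on hom and het arrays only (added after seeing the data), at an adjusted p under 0.01, and without any 1 array (0 to 0). Unadjusted p under 0.05 held for 187, 2029, 191, 884, 280 and 928 probes in the first 6 of these, and for 107 to 396 without single arrays. The count was 5 with the first component as a covariate, 148 with array weights and 8933 within slide 4, which sets hom 1 and hom 2 against het 4 alone. The call on Pigt was lost at −1.32 under median scaling, −1.33 without the filter and with hom and het arrays only, −1.20 with slide as a fixed block, −1.38 with the replicate block and −1.36 with that block on hom and het arrays only, and at −1.39 to −1.28 without single arrays; the replicate block changed no other call. Mysm1 passed with the first component (−1.25) and with array weights (−1.02), and Pfkl and Pdk1 with array weights (−0.67 for each). Mysm1 (−1.06), Pfkl (−1.16) and Pdk1 (−0.55) passed within slide 4 too, where 1 array stands for het and most probes pass, so those calls support nothing. The MEF minus ESC comparison gave 4 probes without the ESC arrays labelled hom 1 and het 1. Signs turned with slide as a fixed block and within slide 4 for Pgap2 (0.0951), Rnf168 (0.0325), Brcc3 (0.229), Plk1 (−0.115), Cdc20 (−0.0268), Tek (−0.0623), Nfia (0.891), Itgb2 (−0.0995), Ddit4 (0.458), Egln2 (0.153), Pdha1 (−0.214) and Pdhb (−0.0999). They turned under median scaling for Rplp1 (0.0579) and Gapdh (0.0282), with the first component for Dlat (0.0356), Gpaa1 (0.00697) and Pfkp (0.0120), with the replicate block on hom and het arrays only for Dlat (0.0119), Gapdh (0.0106), Gpaa1 (0.0300) and Pfkp (0.0336), and with array weights for Arnt (0.126), Dlat (0.111), Egln1 (0.0487), Egln2 (0.114), Gapdh (0.0629), Gpaa1 (0.206), Pigk (0.0821), Slc2a3 (0.0635), Fbln2 (0.0483), Nnat (−0.103), Nusap1 (−0.141), Xbp1 (−0.0196), Dnajc3 (−0.0074) and Pdia6 (−0.131). Without single arrays Aurkb ran from −0.522 to 0.0561, positive without hom 2, and Nfia from −0.410 to 0.144, positive without hom 3 (0.0932) and without het 2. Likewise Arnt ran from −0.244 to 0.0146, Dlat from −0.140 to 0.0522, Egln1 from −0.485 to 0.0144, Egln2 from −0.184 to 0.0285, Gapdh from −0.0989 to 0.0106, Gpaa1 from −0.265 to 0.0963, Pdha1 from −0.0774 to 0.101, Pdhb from −0.0159 to 0.123, Pfkp from −0.386 to 0.0336, Pigk from −0.257 to 0.0865 and Slc2a3 from −0.443 to 0.0573. The cause of these changes was not tested. The other genes refitted under these alternatives kept their sign. Lists with a negative median numbered 9 to 14 over the alternatives, against 12. Array weights gave a convergence warning.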

Other observations

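A pair of probes with no gene in the annotation were higher in hom than in het MEF by more than any named gene of the text, and were chosen after their values were seen. ILMN_1259069 had log2 intensities of 7.67, 7.38 and 6.57 in hom MEF, against 4.97, 5.36, 5.28 and 5.12 in het MEF and 7.86, 5.88, 6.22 and 7.79 in wt MEF (2.03 ± 0.48, limma adjusted p = 1.00). ILMN_2538531 had 8.64, 8.49 and 7.38 in hom MEF, against 6.12, 6.61, 6.62 and 6.56 in het MEF and 8.70, 7.26, 7.22 and 8.47 in wt MEF (1.69 ± 0.42, limma adjusted p = 1.00). Het arrays were the low ones for both, with hom and wt arrays alike, the reverse of Pigt.

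The arrays differed in X- and Y-linked genes. Xist was 6.77, 6.76 and 4.38 in hom MEF and 6.21, 4.34, 4.26 and 4.27 in het MEF, and the Y-linked gene Eif2s3y was 4.24, 4.37 and 4.74 in hom MEF and 4.30, 5.77, 5.64 and 4.78 in het MEF. The part of embryo sex in the differences of the text was not tested.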
